A study of Mus musculus with 6 samples.

Results

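The genes described here are Acan, Vcan, Hapln1, Matn1, Matn3 and Cnmd, 6 of the 30406 genes listed for all 6 libraries, taken by their symbols. Single-nucleus RNA sequencing counted their transcripts in the periosteum, the tissue sheet around bone, of C57BL6 wild-type mice (C57BL/6ScNj in the study's methods), males and females of 12 weeks mixed. Uninjured tibia gave 2 libraries, each from 4 mice. Periosteum collected with the hematoma gave 2 libraries at day 3, 1 at day 5 and 1 at day 7 after an open, non-stabilized tibial fracture, each from 4 to 9 mice. The nuclei of a library were pooled, so a library is 1 replicate, and a level at day 5 or day 7 has no replicate.

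Aggrecan, encoded by Acan, is the large proteoglycan whose chondroitin sulfate chains hold water in cartilage. Versican, encoded by Vcan, is its relative of loose and provisional matrix, and both bind hyaluronan through a similar end. Link protein, encoded by Hapln1, locks that binding, matrilins (Matn1, Matn3) are adaptors between matrix components, and chondromodulin (Cnmd) is a membrane glycoprotein of cartilage that restrains vessel growth. A healing fracture forms a cartilage callus before bone, and the study followed the change from skeletal stem/progenitor cells (SSPCs) through injury-induced fibrogenic cells (IIFCs) to chondrocytes and osteoblasts.

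The libraries held 655 to 4712 barcodes with 1499281 to 29796296 UMIs (unique molecular identifiers, 1 per captured transcript), and 364 to 2148 nuclei per library were analysed. Populations were rebuilt by clustering without the 6 genes and their relatives, and were named from other markers. Chondrocyte-like nuclei were highest for 7 of 7 chondrocyte markers and SSPC-like nuclei for 4 of 4, whereas IIFC-like nuclei were highest for 3 of 6 and fibroblast-like nuclei for 1 of 7. The fibroblast-like name therefore rests on little. The same markers gave the names, so a high count is no separate check of a name. SSPC-like, fibroblast-like, IIFC-like, tenocyte-like, osteoblast-like and chondrocyte-like nuclei are together called stromal. Levels are CPM, the UMIs of a gene scaled to the total UMIs of the nuclei concerned, with exact Poisson 95% intervals in brackets that cover counting error only.

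Acan lies on chromosome 7 (79053483 to 79115099, plus strand, GRCm38), and Hapln3, another link protein gene, ends 0.002 kb from it. Vcan and Hapln1 are neighbours on chromosome 13 (89655312 to 89742509, minus strand, and 89539796 to 89611652, plus strand), 43.659 kb apart, with 0 protein-coding genes between them. Matn1 is on chromosome 4 (130944385 to 130955475, plus strand), Matn3 on chromosome 12 (8947929 to 8972028, plus strand) and Cnmd on chromosome 14 (79637690 to 79662170, minus strand). An antisense gene inside Vcan, Gm4117, had 2164 UMIs in the analysed nuclei against 8041 of Vcan. The sources used here do not say whether counting used the strand, and without it reads of this pair cannot be told apart.

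The 250 bases before the annotated start are shown for Acan and Vcan, which are compared throughout, and for Matn3, whose level followed that of Acan closely. They are RefSeq sequences of GRCm38.p6, written 5′ to 3′ on the strand of the gene. Capitals mark GC boxes (GGGCGG) and RUNX words (TGTGGT or TGCGGT), searched on both strands and, for GC boxes, with overlaps counted.
Acan, chr7:79052976-79053225, plus strand: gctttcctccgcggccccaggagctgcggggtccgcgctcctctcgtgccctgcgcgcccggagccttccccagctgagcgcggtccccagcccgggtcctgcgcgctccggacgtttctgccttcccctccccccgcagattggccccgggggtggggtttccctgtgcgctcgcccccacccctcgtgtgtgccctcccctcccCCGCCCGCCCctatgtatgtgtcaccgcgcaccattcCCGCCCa
Vcan, chr13:89742513-89742762, minus strand: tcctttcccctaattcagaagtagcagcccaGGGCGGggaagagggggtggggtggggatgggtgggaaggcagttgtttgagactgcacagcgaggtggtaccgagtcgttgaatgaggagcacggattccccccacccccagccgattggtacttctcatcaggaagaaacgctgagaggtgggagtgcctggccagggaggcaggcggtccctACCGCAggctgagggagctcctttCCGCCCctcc
Matn3, chr12:8947679-8947928, plus strand: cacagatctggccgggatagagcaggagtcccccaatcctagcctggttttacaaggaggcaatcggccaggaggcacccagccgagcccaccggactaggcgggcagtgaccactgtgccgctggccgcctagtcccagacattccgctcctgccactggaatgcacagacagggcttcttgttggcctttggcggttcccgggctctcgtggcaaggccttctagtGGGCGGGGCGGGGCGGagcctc
Acan and Matn3 each held 3 GC boxes and Vcan 2, a word found in 32.7% of 32851 promoters of this length. The RUNX words, found in 18.6% of promoters, were present in Vcan, Hapln1 and Matn1. The Acan window had 74.4% G and C and that of Vcan 62.4%, against a median of 52.4%. SOX words (the letters A or T at the first and second place, then CAA, then A or T, then G, on either strand), found in 21.8% of promoters, were in the window of 0 of the 6 genes, which says only that these letters are not there.

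Aggrecan transcripts were few before day 5. In the summed stromal nuclei, Acan stood at 35.2 and 2.96 CPM in uninjured replicates 1 and 2, at 28.3 and 39.7 CPM in day 3 replicates 1 and 2, at 614 CPM at day 5 and at 897 CPM at day 7. The lowest of the later libraries was thus far above every uninjured and day 3 library, while the uninjured and day 3 values overlapped. All 8 Acan UMIs of uninjured replicate 1 came from 2 nuclei grouped with chondrocytes, 6 of them from 1 nucleus. Uninjured replicate 2 had 32 nuclei in these clusters with 0 Acan UMIs, 1 of them with Col2a1, at a median depth of 620.5 UMIs, so their chondrocyte-like name is doubtful. In day 3 replicate 2, 37 of 80 Acan UMIs came from 5 chondrocyte-like nuclei, 27 of them from 1 nucleus. With chondrocyte-like nuclei taken out, Acan was at 0 and 3.01 CPM in the uninjured, 28.4 and 21.7 CPM in the day 3, 287 CPM in the day 5 and 258 CPM in the day 7 library. Without these nuclei both day 3 libraries were above both uninjured libraries.

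Versican followed another course. Stromal Vcan was at 212 and 305 CPM in uninjured replicates 1 and 2, and at 1106 and 718 CPM in those of day 3. It was at 535 CPM in the day 5 library and 246 CPM in the day 7 library. Both day 3 libraries were higher than every other library, and the day 7 library lay between the uninjured libraries. Taking out chondrocyte-like nuclei left 214, 308, 1112, 730, 594 and 349.5 CPM, the same order except that day 7 was then above both uninjured libraries.

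**Figure D1:**
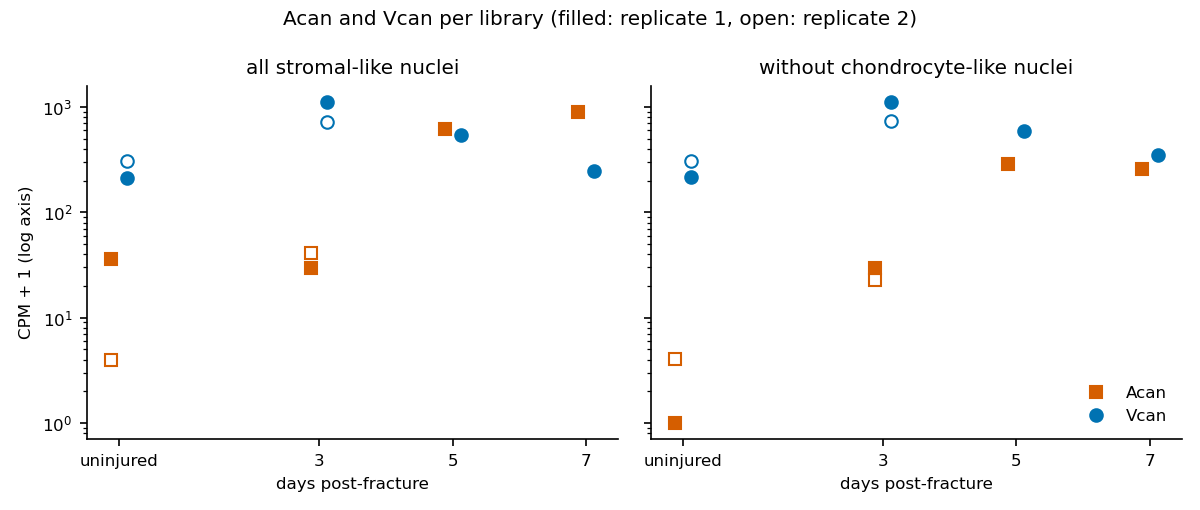
Acan (squares) and Vcan (circles) in CPM + 1 on a log axis against days post-fracture, 1 point per library, for all stromal nuclei (left) and without chondrocyte-like nuclei (right). Vcan is highest in the 2 day 3 libraries (1106 and 718 CPM), and Acan is highest at days 5 and 7 (614 and 897 CPM, or 287 and 258 CPM without chondrocyte-like nuclei).

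Day 3 against uninjured is the only contrast with replicates in both groups. Of the 6 genes, Acan, Vcan and Hapln1 had enough counts to be tested in stromal nuclei, and 1 of them, Vcan, was called, where 9.03% of the 10024 tested genes were called, 3.71% higher and 5.32% lower. Vcan rose by 1.79 ± 0.43 (SE) on the log2 scale (n = 2 and 2 libraries, edgeR quasi-likelihood test, Benjamini-Hochberg adjusted p = 0.0295). Acan changed by 1.51 ± 0.97 (edgeR adjusted p = 0.427) and Hapln1 by -1.23 ± 0.65 (edgeR adjusted p = 0.319), and neither passed. The Vcan call was lost without either uninjured library or day 3 replicate 1 and kept without day 3 replicate 2. The edgeR adjusted p was 0.0852 without uninjured replicate 1, 0.103 without uninjured replicate 2, 0.145 without day 3 replicate 1 (log2 change 1.24) and 0.00215 without day 3 replicate 2, with Vcan higher each time, and it was 0.0576 over all nuclei. Without uninjured replicate 1, the library with 8 Acan UMIs in 2 nuclei, the Acan change was 3.43 (edgeR adjusted p = 0.0175), and without uninjured replicate 2 it was -0.088. In these sums over a population, fewer cells of a type and less RNA per cell cannot be told apart. Nothing in the labels says that the libraries of a group came from separate litters or days, so the p-values measure the spread between these libraries.

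The makeup of the stromal nuclei changed between the groups, with 3 of 121 and 14 of 394 nuclei IIFC-like in the uninjured libraries and 46 of 141 and 83 of 284 at day 3. A fit over SSPC-like and fibroblast-like nuclei alone, chosen after seeing the data, called Vcan with a log2 change of 1.95 ± 0.50 (edgeR adjusted p = 0.0442, n = 2 and 2 libraries), where 7.28% of 7986 genes were called. That call was lost without uninjured replicate 1 (edgeR adjusted p = 0.534) and without day 3 replicate 1 (0.253). Fibroblast-like Vcan was 74.5 and 245 CPM in the uninjured and 1507 and 751 CPM in the day 3 libraries, without overlap. SSPC-like Vcan was 606 and 455 CPM against 1298 and 377 CPM, and these groups overlapped. Macrophage/monocyte markers in the stromal sums totalled 8.81 and 40.8 CPM in the uninjured libraries, with 5 and 1 of the 6 markers at 0 UMIs, and 259 and 429 CPM at day 3, with 0 of 6 at 0. Their part in the Vcan change was not tested.

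Monocytes are themselves known to make versican. In macrophage/monocyte-like nuclei of uninjured replicate 1 Vcan had 0 UMIs, from 10 nuclei with 5967 UMIs in all, too few to show absence. It was at 101 CPM in uninjured replicate 2, 136 and 348 CPM at day 3, 89.3 CPM at day 5 and 154 CPM at day 7. Day 3 against uninjured gave a log2 change of 1.52 ± 0.76 in these nuclei, which did not pass (edgeR adjusted p = 0.979, n = 2 and 2 libraries), and 0.699% of 4575 genes were called, 0.0437% higher and 0.656% lower. With a library left out the change was 0.93 (without day 3 replicate 2) to 2.35 (without day 3 replicate 1), and without uninjured replicate 2 it was 11.1, a fitted value against a lone library at 0 UMIs that is no bound. No such fit passed, the lowest edgeR adjusted p being 0.219. Neutrophil-like nuclei had 144 and 175 CPM of Vcan in the day 3 libraries, 4 and 96 UMIs. Acan had 0 and 8 UMIs in the macrophage/monocyte-like nuclei of day 3 replicates 1 and 2 in sums that held 32 and 1042 Vcan UMIs.

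A slope with day, counting uninjured as day 0, used all 6 libraries. The filter on low counts kept 5 of the 6 genes, and Matn1 was not tested. Matn3 and Cnmd had 0 to 22 and 0 to 3 stromal UMIs in the uninjured and day 3 libraries and passed through days 5 and 7, where they were high, so a count over tested members only describes them. Matn3 rose by 1.53 ± 0.19 (SE) on the log2 scale per day (edgeR adjusted p = 0.0254), Cnmd by 1.27 ± 0.23 (0.0428) and Acan by 1.07 ± 0.19 (0.0404), where 0.557% of 11664 genes were called higher, 1.11% lower and 1.67% in either direction. Hapln1 had a slope of 0.92 ± 0.21 (edgeR adjusted p = 0.081) and Vcan of 0.09 ± 0.17 (0.872), and neither passed. Without chondrocyte-like nuclei 4 of the 6 genes were tested, Cnmd and Matn1 having too few counts, and Acan was called, at 1.12 ± 0.16 per day (edgeR adjusted p = 0.0325), where 0.189% of 11112 genes were called higher, 0.558% lower and 0.747% in either direction. Matn3 then had a slope of 1.10 (edgeR adjusted p = 0.0534) and Hapln1 of 0.36 (0.283).

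All of these slope calls rest on few libraries. Leaving out either uninjured library left 0 genes called by edgeR in either fit, with 992 to 1242 genes at an unadjusted p under 0.05, and the Acan slope was 1.35 (edgeR adjusted p = 0.129) without uninjured replicate 1 and 0.90 (0.173) without uninjured replicate 2. Without the day 5 or the day 7 library Acan was not called over all stromal nuclei (edgeR adjusted p = 0.0976 and 0.0684), Matn3 was, and Cnmd had too few counts to be tested. The libraries also differed in their gene list and in Cell Ranger version. Both uninjured libraries and day 3 replicate 2 had the short list (31055 genes), and day 3 replicate 1 and days 5 and 7 a longer one. The gene list is thus largely confounded with day, and a fit with both cannot well tell them apart. With the gene list as a term 0 genes were called, 465 having an unadjusted p under 0.05, and with the version as a term Acan and Matn3 were called (0.79 and 1.03 per day, edgeR adjusted p = 0.0187 and 0.0428) and Cnmd was not (0.70 per day, 0.129). Without chondrocyte-like nuclei the Acan slope with the version as a term was 0.89 per day (edgeR adjusted p = 0.0633).

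The share of Acan relative to Vcan can be read within a library without scaling. The log2 ratio of Acan to Vcan UMIs in stromal nuclei (0.5 added to each) was -2.51 and -6.55 in uninjured replicates 1 and 2 and -5.24 and -4.17 in those of day 3. The day 5 library had a ratio of 0.20 and the day 7 library of 1.87. Uninjured and day 3 libraries overlapped, with a difference of -0.17 (two-sided exact permutation p = 1, where 2 against 2 libraries allow no p below 0.333). Over the 6 libraries the ratio correlated with day at Pearson r = 0.78 (exact permutation p = 0.0722) and Spearman rho = 0.74 (p = 0.122). Without day 7 and uninjured replicate 1, r was 0.89, and without day 7 and uninjured replicate 2, which lies as far from the median day, it was 0.34, so the relation rests on which libraries are kept. Libraries processed with Cell Ranger 7.1.0 (uninjured replicate 2 and both of day 3) gave -6.55, -5.24 and -4.17, and those processed with 6.0.0 (uninjured replicate 1, days 5 and 7) gave -2.51, 0.20 and 1.87. The ratio was higher in later libraries within each version, with 3 libraries in each. With chondrocyte-like nuclei taken out the ratios were -6.60, -6.54, -5.24, -5.06, -1.05 and -0.44, which rank by day (r = 0.95, exact permutation p = 0.00556, and rho = 0.97, p = 0.0111). Uninjured replicate 1 then had 0 Acan and 48 Vcan UMIs, so its ratio is set by the 0.5 added. This setting was not repeated with a library left out or with another value added.

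Most Acan UMIs of the later libraries lay in chondrocyte-like nuclei, and most Vcan UMIs did not. Chondrocyte-like nuclei held 58.7% of all Acan UMIs at day 5 and 77.4% at day 7, but 6.08% and 5.79% of Vcan UMIs. They held 94.0% and 89.9% of Hapln1 UMIs, 85.8% and 90.6% of those of Matn3 and 95.2% and 90.7% of those of Cnmd. For Matn1 the shares were 86.7% and 93.8%, from 15 and 16 UMIs in all. IIFC-like nuclei were the largest source of Vcan, with 49.3% and 41.4% of its UMIs, and held 21.9% and 10.8% of Acan UMIs. Acan thus had a larger part outside chondrocyte-like nuclei than its binding partner Hapln1, at both days.

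**Figure D2:**
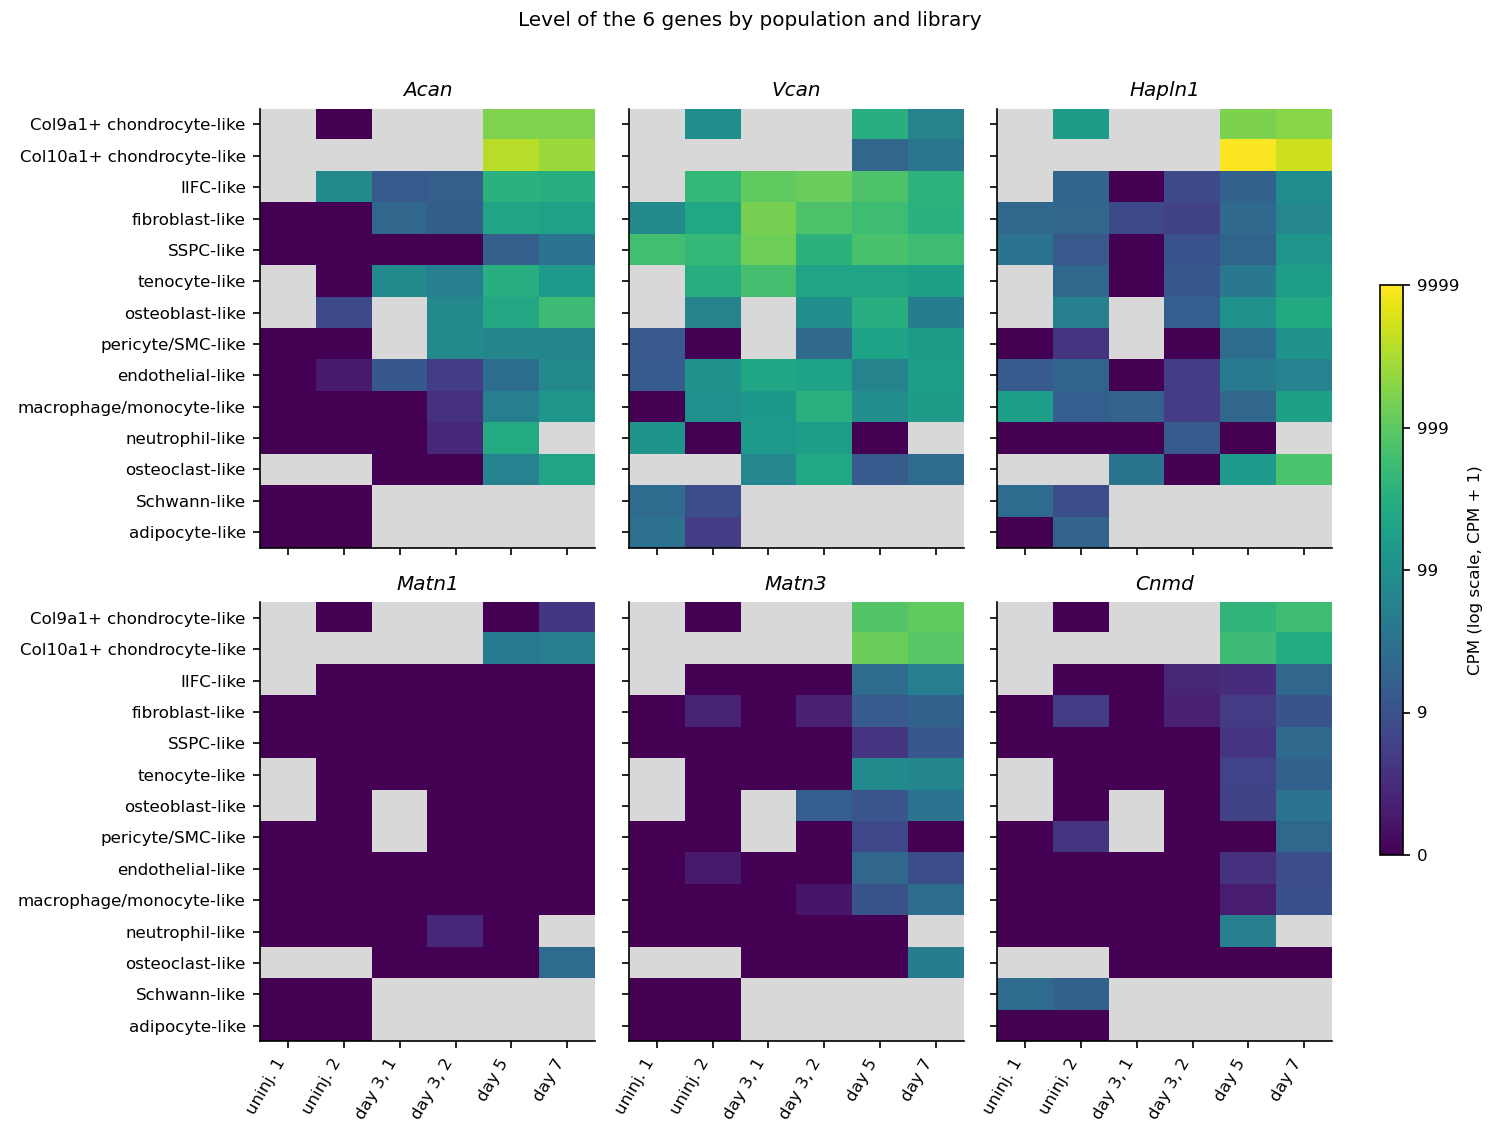
Level of each of the 6 genes in CPM (colour, log scale of CPM + 1) by population (rows) and library (columns), with grey for fewer than 10 nuclei. Acan, Hapln1, Matn3 and Cnmd are brightest in the 2 chondrocyte-like clusters at days 5 and 7, Vcan is bright across SSPC-like, fibroblast-like and IIFC-like nuclei, and Matn1 is at most 50.2 CPM in the clusters shown.

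Chondrocyte-like nuclei were 168 at day 5 and 243 at day 7. Acan was at 2327 [2232 to 2426] CPM at day 5 and 2123 [2005 to 2247] CPM at day 7, 6.49 and 6.41 times its level in IIFC-like nuclei. Hapln1 was at 4130 and 3436 CPM, 250.3 [182 to 354] and 39.4 [29.2 to 54.4] times its IIFC-like level. Matn3 was at 987 and 977 CPM and Cnmd at 458 and 432 CPM. Counting intervals of the day 7 to day 5 ratio held 1 for Matn3 (0.990 [0.890 to 1.10]) and for Cnmd (0.943 [0.803 to 1.11]). They lay below 1 for Acan (0.912 [0.85 to 0.979]) and Hapln1 (0.832 [0.788 to 0.879]). With 1 library a day these intervals compare the libraries, not the days. Most chondrocyte-like nuclei of day 5 were in 1 cluster (117 of 168, the Col9a1+ cluster) and those of day 7 were spread over both (115 and 128). The ratios differed between the clusters. In the Col9a1+ cluster they were 1.22 [1.05 to 1.40] for Matn3, 1.37 [1.12 to 1.67] for Cnmd and 1.19 [1.07 to 1.32] for Hapln1. In the other, Col10a1+ cluster they were 0.716 [0.608 to 0.841], 0.529 [0.400 to 0.696] and 0.518 [0.485 to 0.552]. For Acan they were 1.01 [0.902 to 1.12] and 0.689 [0.626 to 0.758].

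Vcan was lower in chondrocyte-like than in IIFC-like nuclei, at 226 against 757 CPM at day 5 and 48.0 against 383 CPM at day 7. Per kilobase of gene the Vcan level in chondrocyte-like nuclei was 2.59 CPM at day 5 and 0.55 CPM at day 7, against 37.8 and 34.5 CPM for Acan. In IIFC-like nuclei the order per kilobase was reversed at day 5, with 8.69 CPM for Vcan and 5.82 CPM for Acan. At day 7 the IIFC-like levels per kilobase were 4.39 CPM for Vcan and 5.37 CPM for Acan. Without division by length they were 383 CPM for Vcan and 331 CPM for Acan. The lengths are whole genes with introns (87.2 kb for Vcan, 61.6 kb for Acan). UMIs from a 3′ kit need not scale with that length. Levels per kilobase therefore do not settle which gene had more transcripts.

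The 2 chondrocyte-like clusters differed in these genes, although the genes had no part in the clustering. Clusters are called here by a collagen that led them, Col9a1 or Col10a1, the latter being a marker of hypertrophic cartilage. Col9a1 was also among the leading genes of the Col10a1+ cluster, so the name Col9a1+ does not by itself set the clusters apart. In the Col10a1+ cluster of day 5, Acan was at 3688 CPM against 1705 CPM in the Col9a1+ cluster, 2.16 [1.99 to 2.35] times as much, and at day 7 at 2540 against 1714 CPM (1.48 [1.32 to 1.67] times). Hapln1 differed more, at 9623 against 1620 CPM (5.94 [5.53 to 6.38] times) at day 5 and 4980 against 1922 CPM (2.59 [2.35 to 2.87] times) at day 7. Aggrecan and its link protein were therefore both higher in the Col10a1+ cluster in both libraries.

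Vcan ran the other way at day 5, with 20.1 CPM (6 UMIs) in the Col10a1+ and 320 CPM (209 UMIs) in the Col9a1+ cluster, a ratio of 0.0628 [0.0228 to 0.139]. At day 7 it was at 35.9 and 59.8 CPM (10 and 17 UMIs), and the interval of the ratio held 1 (0.600 [0.245 to 1.39]). Vcan in the Col9a1+ cluster was 0.187 [0.107 to 0.307] times as high at day 7 as at day 5. The order of the clusters was less stable for Matn3 and Cnmd. Matn3 was 1.5 [1.31 to 1.71] times as high in the Col10a1+ cluster at day 5 and 0.881 [0.742 to 1.05] times at day 7, an interval that held 1, and Cnmd was 1.29 [1.06 to 1.58] and 0.50 [0.378 to 0.658] times as high. Matn1 was nearly limited to the Col10a1+ cluster, with 13 and 14 UMIs (43.5 and 50.2 CPM) there and 0 and 1 UMI in the Col9a1+ cluster, where 0 UMIs allow up to 4.59 CPM at day 5.

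**Figure D3:**
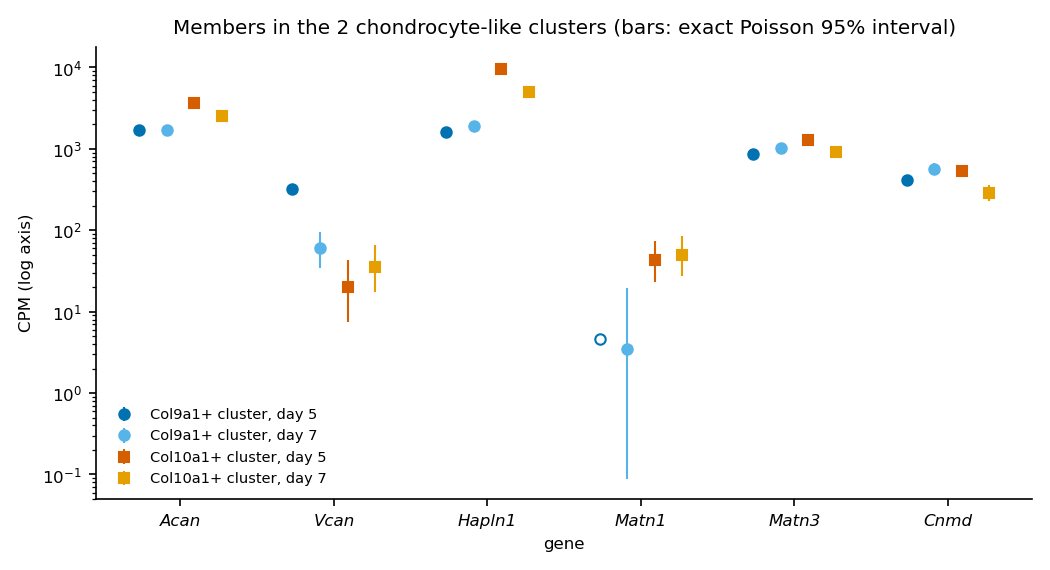
Level of the 6 genes in CPM on a log axis in the Col9a1+ (circles) and Col10a1+ (squares) chondrocyte-like clusters at days 5 and 7, with exact Poisson 95% intervals and an open symbol at 3 UMIs for Matn1 with 0 UMIs. Acan and Hapln1 are higher in the Col10a1+ cluster at both days (Hapln1 9623 against 1620 CPM at day 5), and Vcan is lower there at day 5 (20.1 against 320 CPM).

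Within chondrocyte-like nuclei thinned to 1000 UMIs, nuclei without a Col2a1 UMI (41 at day 5) had 1.37 Acan, 1.00 Hapln1 and 0.268 Vcan UMIs per 1000. The 82 nuclei of day 5 with 3 or more Col2a1 UMIs, the main collagen of cartilage, had 2.54 Acan, 4.32 Hapln1 and 0.0976 Vcan UMIs per 1000. Counting intervals of these groups did not overlap for Acan (1.03 to 1.77 and 2.20 to 2.91) or Hapln1 (0.718 to 1.36 and 3.88 to 4.79), and did for Vcan. At day 7 the Hapln1 intervals were apart too, at 0.643 [0.294 to 1.22] in 14 nuclei without a Col2a1 UMI and 4.63 [4.27 to 5.02] in 128 nuclei with 3 or more. Those of Acan overlapped at day 7, with 1.57 [0.985 to 2.38] and 2.37 [2.11 to 2.65], and the 40 nuclei with 1 or 2 Col2a1 UMIs had 2.6 [2.12 to 3.15]. The Col2a1 groups went in part with the 2 clusters. Of day 5 nuclei with an Acan UMI, 94.7% in the Col10a1+ and 68.8% in the Col9a1+ cluster had a Col2a1 UMI. The relation with Col2a1 was not read within a cluster. Nuclei of 1 library are not replicates, and these values describe the 2 libraries.

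Outside chondrocyte-like nuclei Acan was found in IIFC-like, fibroblast-like, tenocyte-like and osteoblast-like nuclei, mostly at days 5 and 7. IIFC-like Acan was at 75.9 CPM (4 UMIs in 14 nuclei) in uninjured replicate 2, 12.5 and 15 CPM at day 3, 359 CPM at day 5 and 331 CPM at day 7. The ratio of day 7 to day 5 was 0.923 [0.777 to 1.09], its counting interval holding 1. Fibroblast-like Acan was 0 in both uninjured libraries, 20.1 and 14.4 CPM at day 3, and 218 and 191 CPM at days 5 and 7. Both later libraries were thus well above the earlier ones in these populations too. SSPC-like nuclei had 0 Acan UMIs in the 4 uninjured and day 3 libraries, with 0 UMIs in uninjured replicate 2 allowing up to 5.96 CPM, and 5 and 3 UMIs (15.5 and 32.9 CPM) at days 5 and 7. SSPC-like Acan was therefore lower than IIFC-like Acan in both later libraries.

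Tenocyte-like nuclei had 0 Acan UMIs in uninjured replicate 2 and 77.7 and 49.8 CPM at day 3, before 327 CPM at day 5 and 139 CPM at day 7. Osteoblast-like nuclei had 6.76 CPM (1 UMI) in uninjured replicate 2 and 74.0 CPM in day 3 replicate 2, then 262 CPM at day 5 and 543 [376 to 759] CPM at day 7 (34 UMIs in 44 nuclei). Osteoblast-like Acan was 2.08 [1.39 to 3.03] times as high at day 7 as at day 5. Endothelial-like Acan was also higher at day 7, at 74.6 against 26.9 CPM (9 and 20 UMIs). IIFC-like, fibroblast-like and tenocyte-like Acan was not. A higher day 7 level was thus not particular to osteoblast-like nuclei. At day 5 the IIFC-like (359 [335 to 384]) and tenocyte-like (327 [282 to 378]) levels overlapped in their intervals, as did the osteoblast-like (262 [222 to 306]) and fibroblast-like (218 [193 to 246]) levels. Among these stromal populations the day 7 order was chondrocyte-like, osteoblast-like, IIFC-like, fibroblast-like (191 [145 to 248]) and tenocyte-like (139 [80.9 to 222]). The intervals of osteoblast-like and IIFC-like nuclei overlapped slightly, as did those of fibroblast-like and tenocyte-like nuclei. Populations outside the stromal ones also had Acan UMIs, as given below with free RNA.

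Vcan in the same populations was lower at day 7 than at day 5 in IIFC-like, fibroblast-like and osteoblast-like nuclei, beyond counting error. IIFC-like Vcan was at 455 CPM in uninjured replicate 2, 1060 and 1197 CPM at day 3, 757 CPM at day 5 and 383 CPM at day 7, with a day 7 to day 5 ratio of 0.505 [0.433 to 0.587]. Fibroblast-like Vcan was at 566 and 359 CPM at days 5 and 7 (0.634 [0.513 to 0.779]), both above its uninjured and below its day 3 levels given earlier. Osteoblast-like Vcan was at 60.8 CPM (9 UMIs) in uninjured replicate 2, 96.2 CPM (13 UMIs) in day 3 replicate 2, 319 CPM at day 5 and 47.9 CPM (3 UMIs) at day 7 (0.150 [0.0307 to 0.445]). SSPC-like Vcan was at 711 and 571 CPM, and the interval of its ratio held 1 (0.803 [0.582 to 1.09]). Tenocyte-like Vcan was at 312 CPM in uninjured replicate 2, 661 and 218 CPM at day 3, and 212 and 180 CPM later. Among the stromal populations of day 7, SSPC-like nuclei had the highest Vcan level and chondrocyte-like and osteoblast-like nuclei the lowest.

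Endothelial-like nuclei had Vcan at 13.2 and 111 CPM in uninjured replicates 1 and 2 and at 231 and 209 CPM in those of day 3. The day 5 library had 60.6 CPM and the day 7 library 166 CPM. Both day 3 libraries were above both uninjured libraries there as well. Pericyte/SMC-like Vcan was at 209 CPM at day 5 and 152 CPM at day 7, and in Schwann-like and adipocyte-like nuclei of the uninjured libraries Vcan had 1 UMI per library.

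The populations can be put in order by the share of Acan among Acan and Vcan UMIs, a composition that carries no statement on which gene is higher per length. At day 5 it was 2.14% [0.697 to 4.92] in SSPC-like, 27.8% [25 to 30.8] in fibroblast-like, 32.1% [30.3 to 34.0] in IIFC-like, 45.0% [39.7 to 50.5] in osteoblast-like, 60.7% [54.9 to 66.2] in tenocyte-like and 91.2% [90.0 to 92.3] in chondrocyte-like nuclei, with exact binomial 95% intervals. Fibroblast-like and IIFC-like nuclei were not apart within these intervals, and the other neighbours were. At day 7 the share was 5.45% in SSPC-like, 34.8% in fibroblast-like, 46.4% in IIFC-like, 43.6% in tenocyte-like, 91.9% in osteoblast-like and 97.8% in chondrocyte-like nuclei. At day 3, in contrast, it was 1.17% and 1.24% in IIFC-like nuclei of replicates 1 and 2 and 1.32% and 1.88% in fibroblast-like nuclei.

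**Figure D4:**
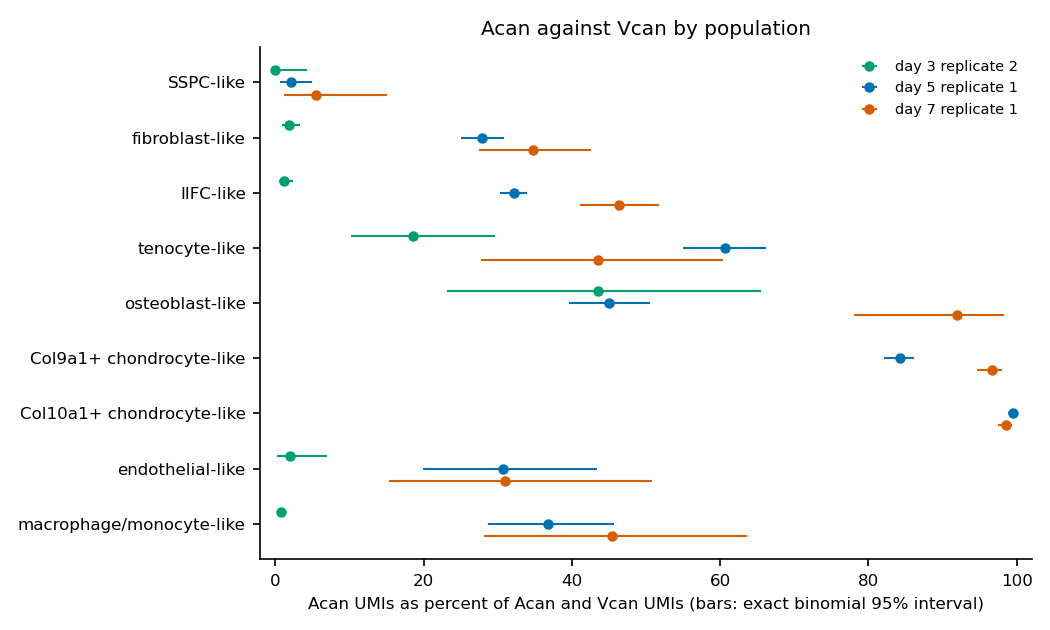
Acan UMIs as a percent of Acan and Vcan UMIs (horizontal axis) by population in day 3 replicate 2, day 5 and day 7, with exact binomial 95% intervals. IIFC-like nuclei are at 1.24%, 32.1% and 46.4% in the 3 libraries, and the chondrocyte-like clusters at 84.2% and above.

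Some UMIs of each gene can come from RNA that was free in the suspension. Endothelial-like nuclei, which should lack aggrecan, had 0 and 0.965 CPM of Acan in uninjured replicates 1 and 2 and 11.6 and 4.27 CPM in those of day 3. The day 5 library had 26.9 CPM (20 UMIs) and the day 7 library 74.6 CPM (9 UMIs). Other populations outside the stromal ones had Acan too. Osteoclast-like nuclei held 9 Acan UMIs among 152725 in all at day 5 and 9 among 41815 at day 7. That day 7 fraction was not below the fibroblast-like one (57 among 298088). Macrophage/monocyte-like nuclei held 49 among 940412 and 15 among 116904, and neutrophil-like nuclei 5 among 18314 at day 5. The part of free RNA in these counts was not tested. Thinned to 500 UMIs, 13.2% [9.95 to 17.0] of 379 IIFC-like nuclei had an Acan UMI at day 5 and 8.33% [4.84 to 13.2] of 192 at day 7, against 1.89% [0.516 to 4.76] of 212 and 4.17% [0.868 to 11.7] of 72 endothelial-like nuclei. Their median depths before thinning were 5175 and 1805.5 UMIs for IIFC-like and 2470 and 1028 UMIs for endothelial-like nuclei. The intervals were apart at day 5 and overlapped at day 7, so at day 7 a share of Acan-positive IIFC-like nuclei above the endothelial-like background was not detectable at this depth. The summed levels at day 7, which use every UMI, were 331 [283 to 385] CPM in IIFC-like and 74.6 CPM (9 UMIs) in endothelial-like nuclei. Of chondrocyte-like nuclei, 55.4% at day 5 and 62.1% at day 7 had an Acan UMI at this depth. For Vcan the IIFC-like shares were 23.7% and 15.1%, against 0.943% and 4.17% in endothelial-like nuclei.

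The pair Acan and Hapln1 was also read as a share within each population. Acan made up 36.0% [34.8 to 37.3] of Acan and Hapln1 UMIs in chondrocyte-like and 38.5% [25.3 to 53.0] in endothelial-like nuclei at day 5. In IIFC-like nuclei it made up 95.6% [94.0 to 96.9], in fibroblast-like nuclei 90.7%, in tenocyte-like nuclei 89.4% and in osteoblast-like nuclei 70.3%. All 4 shares were above that of chondrocyte-like nuclei at day 5. So were those of macrophage/monocyte-like nuclei (72.1% [59.9 to 82.3], 49 Acan and 19 Hapln1 UMIs) and pericyte/SMC-like nuclei (72.4% [52.8 to 87.3], 21 and 8 UMIs). A high share was thus not particular to stromal populations, and osteoblast-like nuclei held 65 Hapln1 against 154 Acan UMIs. At day 7 the shares were 38.2% in chondrocyte-like, 79.1% in IIFC-like, 73.1% in fibroblast-like, 66.7% in osteoblast-like, 44.7% [28.6 to 61.7] in tenocyte-like and 56.2% [29.9 to 80.2] in endothelial-like nuclei. Osteoclast-like nuclei, at 30.0% [14.7 to 49.4] and 22.5% [10.8 to 38.5], had more Hapln1 (21 and 31 UMIs) than Acan UMIs (9 and 9). The part of free RNA in these shares was not tested.

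**Figure D5:**
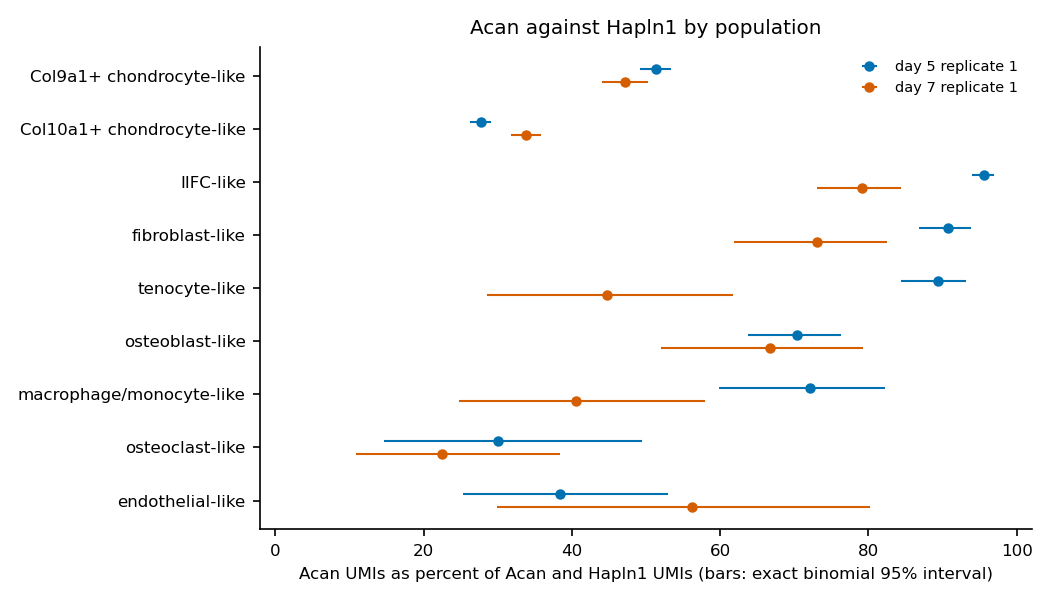
Acan UMIs as a percent of Acan and Hapln1 UMIs (horizontal axis) by population at days 5 and 7, with exact binomial 95% intervals. IIFC-like nuclei are at 95.6% and 79.1%, endothelial-like nuclei at 38.5% and 56.2%, and the Col10a1+ cluster at 27.7% and 33.8%.

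Outside chondrocyte-like nuclei Hapln1 UMIs were few and, in part, at the level of endothelial-like nuclei, which had 43.1 [29.5 to 60.8] CPM at day 5 and 58.0 [23.3 to 120] CPM at day 7. IIFC-like Hapln1 was at 16.5 CPM (38 UMIs) at day 5 and 87.2 CPM (44 UMIs) at day 7, 5.29 [3.35 to 8.39] times as high. The day 5 value was below that of endothelial-like nuclei, and at day 7 the intervals overlapped, so IIFC-like Hapln1 is not read as expression. Clustering without integration gave 35.2 and 67.3 CPM, so the size of the ratio rests on the clustering. Osteoblast-like Hapln1 was at 110.4 [85.2 to 141] and 271 [158 to 435] CPM, above the endothelial-like interval in both libraries. It was not above the osteoclast-like fraction, 21 Hapln1 UMIs among 152725 in all at day 5 and 31 among 41815 at day 7. Fractions were lower in macrophage/monocyte-like (19 among 940412 and 22 among 116904) and pericyte/SMC-like nuclei (8 among 310648 and 5 among 46187). Whether osteoblast-like Hapln1 is expression or free RNA was not tested. In the uninjured stromal nuclei it was at 30.8 and 23.1 CPM, above the 4.35 and 16.4 CPM of day 3, a difference that did not pass the test, with 13.2 and 18.3 CPM in uninjured endothelial-like nuclei. IIFC-like Matn3 was at 24.8 and 51.5 CPM (57 and 26 UMIs), and tenocyte-like Matn3 at 81.4 and 65.3 CPM, against 20.2 and 8.29 CPM (15 and 1 UMI) in endothelial-like nuclei. IIFC-like Cnmd was at 2.17 CPM (5 UMIs) and 19.8 CPM (10 UMIs), against 2.69 and 8.29 CPM (2 and 1 UMI). Matn1 had 0 UMIs in IIFC-like nuclei, which allows up to 1.3 CPM at day 5.

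Likeness of pattern was described over 48 combinations of population and library with at least 20 nuclei, as the Pearson correlation of log2(CPM + 10) among 10112 genes. These points share libraries and depth, and no test is given. Acan was most like the cartilage collagens Col9a1 (r = 0.90) and Col2a1 (0.89) and the matrilin Matn3 (0.85). Hapln1 was most like Col2a1 (0.92), Col9a1 (0.88) and Col10a1 (0.87), and Matn3 most like Col9a3 (0.93), Col9a1 (0.93) and Col10a1 (0.90). Cnmd was most like Gm43154 (0.88), Ihh (0.87), a signal of prehypertrophic chondrocytes, and Col9a2 (0.86), and Matn1 most like Clec3a (0.90), Usp29 (0.83) and Col10a1 (0.81). Vcan was most like Ccbe1 (0.79), Hhipl1 (0.77) and Dclk1 (0.76), 3 genes highest in SSPC-like or IIFC-like nuclei. Acan and Vcan had r = 0.14, against 0.72 for Acan and Hapln1 and -0.17 for Vcan and Hapln1.

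Genes that build, bind or cut these proteoglycans were read from the same fits. Among 22 genes of chondroitin sulfate synthesis and sulfation, 17 were tested at day 3 against uninjured, 4 were called higher and 0 lower, where 3.71% of all tested genes were called higher. Csgalnact1, which starts the chondroitin chain, stood at 123 and 262 CPM in the uninjured and 2050 and 1702 CPM in the day 3 libraries (log2 change 3.22 ± 0.48, edgeR adjusted p = 0.00482). The sulfotransferase Chst11 changed by 2.92 (edgeR adjusted p = 0.00796) and the chain-building synthases Chsy1 and Chsy3 by 2.69 and 1.77 (0.0118 and 0.0257). The groups of libraries did not overlap for any of the 4. The Chsy3 call was lost without either uninjured library or without day 3 replicate 1, and the Chst11 call without uninjured replicate 2 (edgeR adjusted p = 0.0626). The median log2 change of the tested genes of this list was 0.56, against 0.0058 over all genes. In the slope with day 1 of 18 was called, Xylt1, which attaches the sugar linker to the core protein, at 0.53 per day, and it was also called without chondrocyte-like nuclei (0.38 per day).

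Of 11 genes that cleave proteoglycans or matrilins or inhibit that cleavage, all tested at day 3, 1 was called higher and 1 lower (median -1.19), where 3.71% of all tested genes were called higher and 5.32% lower. The aggrecanase Adamts4 had 0 and 1 UMI in the uninjured and 6 and 33 UMIs (13.1 and 16.4 CPM) in the day 3 libraries (edgeR adjusted p = 0.0303), a call lost without uninjured replicate 1 or day 3 replicate 1. Adamts4 passed the filter through day 3, where it was high, so its call only describes it. The inhibitor Timp3 was at 189 and 330 CPM in the uninjured and 28.3 and 84.8 CPM in the day 3 libraries (log2 change -2.27, edgeR adjusted p = 0.0147), a call lost without uninjured replicate 2 (0.146). In the slope 0 of 11 were called by edgeR.

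Among 10 hyaluronan partners, 6 were tested at day 3 and 3 were called higher, with a median of 1.95, where 3.71% of all tested genes were called higher. The synthase Has2 was at 48.5 and 75.7 CPM in the uninjured and 189 and 381 CPM in the day 3 libraries (edgeR adjusted p = 0.0124), and Tnfaip6, which remodels hyaluronan matrix, at 44.1 and 28.4 against 122 and 142 CPM (0.0195). Hmmr, a hyaluronan receptor that is also a gene of dividing cells, had 0 UMIs in both uninjured and 30 and 84 UMIs in the day 3 libraries (edgeR adjusted p = 0.00526). Hmmr thus passed the filter only through day 3, where it was high, and its part in the count and median only describes it. The 3 calls were lost without uninjured replicate 2 (edgeR adjusted p = 0.0537, 0.161 and 0.0714). In the slope 0 of 6 were called.

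Cartilage collagens are the matrix partners of these proteins. Of 8 cartilage collagens, 7 were called higher in the slope with day and 0 lower, where 0.557% of all tested genes were called higher, with a median of 1.18 per day against 0.0015 over all genes. Col9a1, Col9a2, Col9a3 and Col10a1 had too few counts to be tested at day 3 against uninjured. They entered the slope with the counts of days 5 and 7, where they were high, so this count and median only describe the list. Col9a1 had the steepest slope (1.74 per day), followed by Col9a2 (1.47), Col2a1 (1.3), Col9a3 (1.29), Col10a1 (1.07), Col11a1 (0.79) and Col27a1 (0.65). Without chondrocyte-like nuclei 3 of 7 tested were called, Col9a2, Col9a1 and Col11a1 (1.18, 1.08 and 0.61 per day). At day 3 against uninjured Col27a1 was the only one of 4 tested to be called (log2 change 2.24, edgeR adjusted p = 0.00541), at 57.3 and 71.6 against 324 and 321 CPM, and it stayed called with each library left out. Of 8 chondrocyte transcription factors, 5 were tested and Sox9 (0.47 per day) and Trps1 (0.47) were called higher in the slope, while 0 were called at day 3 in stromal nuclei and Trps1 was in SSPC-like and fibroblast-like nuclei (1.75). Of 11 other cartilage matrix genes 7 were tested in the slope and Ucma was called (0.93 per day), the median slope of the 7 being -0.014. Ucma too had too few counts to be tested at day 3 against uninjured. Of the 14 lecticans, link proteins, matrilins and chondromodulin relatives, 8 were tested in the slope and the calls were those of Acan, Matn3 and Cnmd. All slope calls share the limits given for the 6 genes. In the fit over SSPC-like and fibroblast-like nuclei at day 3, Csgalnact1, Chst11, Chsy1, Chsy3, Timp3, Has2, Tnfaip6, Hmmr and Col27a1 were called in the same directions. These nuclei are part of the stromal sums of the same libraries, so this is no separate support. Hmmr again passed the filter only through day 3. The calls of this fit, as for Vcan, rest on few libraries.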

How the data were processed

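Nuclei of the periosteum, sorted without selecting a cell type, were sequenced in 6 libraries (2 uninjured, 2 at day 3, 1 each at days 5 and 7 post-fracture, grouped by their titles). The authors deposited, per library, the raw UMI counts of every gene and barcode, made with Cell Ranger (6.0.0 for uninjured replicate 1, days 5 and 7, and 7.1.0 for the others, per the file headers) from intronic and exonic reads. The build is mm10 per the submitters' processing notes and the methods, although the labels' protocol names a human genome, and the files hold mouse genes. Lists of 31055 to 32287 genes were cut to the 30406 common ones.

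Barcodes were retained if they had from 200 up to 5000 genes, less than 2% of UMIs from mitochondrial genes and less than 1.5% from ribosomal protein genes (8059 barcodes), myogenic clusters were removed and 6106 nuclei remained. Pairs of libraries shared 0 to 7 barcodes. Scrublet marked 48 nuclei, 21 of them among those remaining, and doublets were kept because the methods name no caller. Libraries were integrated with Seurat (20 components, resolution 1.3, 25 clusters) without the 6 genes and their relatives among the features. Clusters were named from markers by their log2 ratio over clusters, a rule whose details were set after seeing the data, and 4 clusters with 633 nuclei stayed unnamed.

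UMIs were summed per population and library. Levels have exact Poisson and shares exact Clopper-Pearson 95% intervals, and a count of 0 allows 3 counts. Shares used nuclei thinned to 500 UMIs. Sums were tested with edgeR (filterByExpr, TMM, glmQLFit, glmQLFTest) over all genes, adjusted by Benjamini-Hochberg with a threshold of 0.05. The scripts were tested on simulated data. Days 5 and 7 were tested only through the slope. The genes and the gene lists were chosen with earlier results of these data known. Named were the 6 genes, every called gene of 7 lists and the 3 genes most like each of the 6 in pattern. Alternatives covered DESeq2, RLE factors, no filter on low counts, each library left out, the gene list or Cell Ranger version as a term, other sets of nuclei, another pseudocount (0.1), resolution 0.8, no integration, the 6 genes kept among the features, looser filters and other thinning. The version term and the fit over SSPC-like and fibroblast-like nuclei were added after seeing the data. Coordinates follow GENCODE vM21 on GRCm38 and promoters RefSeq on GRCm38.p6, which matched 6 of 6 genes. Versions were R 4.3.3, edgeR 4.0.16, DESeq2 1.42.0, Seurat 5.3.0, Python 3.11.15, scanpy 1.11.5, numpy 2.4.6, scipy 1.17.1, pandas 2.3.3 and matplotlib 3.10.9.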

Additional observations from a re-analysis of the deposited data

Results flagged for a closer look

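The barcodes that the filters and the removal of myogenic clusters took out enter no comparison above, and 5 of the 6 genes had a level there above both uninjured libraries. In the removed barcodes of day 5, Acan was at 298 [273 to 325] CPM (518 UMIs in 388 barcodes), against at most 2.29 CPM in the removed barcodes of the uninjured libraries. In the same barcodes Hapln1 was at 131 CPM, Matn3 at 86.4 CPM and Cnmd at 26.5 CPM, against at most 20.6, 0.382 and 0.382 CPM in the uninjured libraries. Vcan was highest in the removed barcodes of day 3 replicate 2, at 401 [393 to 410] CPM (9237 UMIs in 3595 barcodes), against at most 28.3 CPM in the uninjured libraries, and 4 of the 4 fractured libraries exceeded that. The Vcan level of all barcodes of day 3 replicate 2 was 402 CPM, so its removed and retained barcodes were alike in this gene. No test was made of these values.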

How the results depend on the processing

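No paired analysis was possible because the labels give no replicate numbers that link libraries. Direction and side of the threshold held in 330 of 486 alternatives for single genes, 144 lost their call, 6 gained one and 6 reversed. Calls at day 3 in stromal nuclei numbered 905, 1450 without the filter on low counts and 347 to 846 with a library left out. In macrophage/monocyte-like nuclei 32 became 12 with DESeq2, 75 without the filter and 0 to 55 with a library left out (edgeR, at least 197 genes with an unadjusted p under 0.05 where 0 were called). The 195 calls of the slope became 774 with DESeq2, 1087 without the filter, 0 with the gene list as a term, 18 over all nuclei, 108 with unnamed clusters added and 0 to 209 with a library left out. Without chondrocyte-like nuclei 83 became 586 with DESeq2, 948 without the filter, 0 with the gene list as a term (401 with an unadjusted p under 0.05), 186 with the Cell Ranger version as a term and 0 to 107 with a library left out. The 581 calls in SSPC-like and fibroblast-like nuclei became 0 to 577. With a library left out the Acan change at day 3 was -0.088 (without uninjured replicate 2) to 3.43 (without uninjured replicate 1). The Vcan slope, near 0 throughout, was -0.079 with the gene list as a term and -0.071 and -0.027 without uninjured replicates 1 and 2, up to 0.35 without day 7, and without chondrocyte-like nuclei -0.024 with the gene list and -0.0019 without uninjured replicate 1. The log2 ratio of Acan to Vcan at day 3 minus uninjured became 1.43 with chondrocyte-like nuclei removed and -2.19 to 1.85 with a library left out (1.85 without uninjured replicate 1, 0.36 without day 3 replicate 1). Its correlation with day became 0.95 with chondrocyte-like nuclei removed and 0.57 to 0.95 with a library left out. Causes of these changes were not tested.

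Without integration day 5 levels in chondrocyte-like nuclei were 2673 CPM for Acan and 168 CPM for Vcan, and in IIFC-like nuclei 397 and 614 CPM, with Hapln1 at 35.2, Matn3 at 40.7 and Cnmd at 10.4 CPM there against 16.5, 24.8 and 2.17 CPM with integration. With looser filters chondrocyte-like Acan was 2208 CPM at day 5. Thinned to 1000 UMIs, nuclei with an Acan UMI were 77.6% and 81.3% of chondrocyte-like and 23.3% and 26.5% of IIFC-like nuclei at days 5 and 7, and nuclei with a Vcan UMI were 13.2% and 43.0% of these populations at day 5. Without thinning the Acan shares were 93.5%, 87.2%, 58.6% and 38.0% and the Vcan shares 33.9%, 8.23%, 77.0% and 36.5% in the same order, which deeper nuclei raise by construction. Depth limits Matn1 most, which had 15 and 16 UMIs in the analysed nuclei of days 5 and 7.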

Other observations

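Relatives of these genes that were measured in the same fits behaved unevenly. Matn4, a further matrilin, was at 0 and 10.1 CPM in the stromal nuclei of the uninjured libraries, 4.35 and 9.42 CPM at day 3, 110 CPM at day 5 and 121 CPM at day 7, with a slope of 0.71 ± 0.16 per day that did not pass (edgeR adjusted p = 0.076). Matn2 was between 91.1 and 137 CPM in all 6 libraries (slope 0.10, edgeR adjusted p = 0.377). Tnmd, the tendon relative of chondromodulin, was at 0 and 9.47 CPM in the uninjured libraries, 6.53 and 34.7 CPM at day 3, 45.6 CPM at day 5 and 32.9 CPM at day 7 (slope 0.41, edgeR adjusted p = 0.217).

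Among the clusters left unnamed, the one led by Pax7, a gene of muscle satellite cells, had 108 Vcan UMIs in 47 nuclei at day 5, 644 [528 to 777] CPM, and 2 Acan UMIs. The cluster led by Ttn, which encodes a muscle protein and had a median depth of 651 UMIs, had Acan at 169 CPM at day 5 and 363 CPM at day 7.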
